A study of Mus musculus with 4 samples.

Results

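Intronic distal peaks are sites of open chromatin inside protein-coding genes but away from promoters and exons. A peak was a member when its summit lay in the body of a protein-coding gene, in no annotated exon and more than 2 kb from every transcription start site (TSS). Peaks that overlapped a CpG island (CGI) and peaks with at least 50% of their bases in soft-masked repeats were left out, and autosomes alone were used. Of 119365 peaks in the 4 deposited lists, 28448 were members. Member peaks that overlapped by at least 1 bp were merged over the lists into 16061 regions, of 56723 autosomal regions in the series, and a list was said to hold a region when it had a peak there.

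The peaks came from ATAC-seq, in which the Tn5 transposase cuts accessible DNA, of hippocampal nuclei taken at postnatal day 0 (P0). There were 2 cKO and 2 Ctrl libraries, called cKO1, cKO2, Ctrl1 and Ctrl2 after the replicate numbers in their titles. cKO mice carry the genotype Kdm2bEmx1-delta-CxxC, in which Emx1-Cre, a recombinase active in the dorsal telencephalon, removes the exon for the CxxC zinc finger of KDM2B. Ctrl mice are labelled Kdm2bfl/+ or Kdm2bfl/fl, and the labels do not say which of these each library was, so each came from mice with at least 1 floxed allele. Cells that never expressed Emx1, such as vessels, microglia and interneurons, keep intact KDM2B in the cKO tissue. The titles and protocol name hippocampal tissue, whereas the source label names neural progenitor cells. Nothing in the labels states that libraries came from separate animals, so the p-values below measure the spread between these libraries, which may be technical.

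Introns hold many of the enhancers of long genes, where transcription factors bind open chromatin and act on a promoter some distance away. In developing hippocampus and cortex, nuclear factor I (NFI) proteins act in the maturation of neurons and glia, and basic helix-loop-helix (bHLH) factors such as NEUROD and NEUROG proteins, which bind E-boxes, drive neuronal differentiation. The CxxC zinc finger binds unmethylated CpG sites and brings KDM2B and the variant Polycomb complex PRC1.1 to CGIs. The members lie outside CGIs by their definition. The study asked whether chromatin opened when the CxxC finger was lost, with Wnt pathway genes in view.

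The first set of sequences gives examples of members called in most libraries, taken from the strongest or best ranked. Windows of the same sets without a marked motif, such as those of Mamstr and Ttc37, were left out. All examples hold at least 1 of the 5 motifs marked below, so they do not stand for all members. Each is the 200 bases about the summit of a region, on the plus strand of mm10. The regions of Slc7a11, Tenm4, Etv5, Epha6 and Cntnap2 are among the 10 strongest held by the 3 lists other than Ctrl2, a set chosen after its values were seen. The windows are chr3:50014490-50014689 in Slc7a11, chr7:96474646-96474845 in intron 3 of 32 of Tenm4, chr16:22428971-22429170 in intron 5 of 12 of Etv5, chr16:60102258-60102457 in intron 5 of 17 of Epha6 and chr6:46362246-46362445 in intron 11 of 23 of Cntnap2. The windows chr16:43130671-43130870 in intron 4 of 14 of Zbtb20 and chr16:43814856-43815055 in intron 3 of 6 of Drd3 are in regions that only the 2 cKO lists held once all lists had been cut to equal length. Capitals mark 5 motifs on either strand, namely TTGGCA (the NFI motif), CAGATG (the E-box of NEUROD and NEUROG proteins), CAGCTG (an E-box of other bHLH factors), TAATTA (the core of homeobox sites) and GTTGCC (part of RFX sites).
Slc7a11: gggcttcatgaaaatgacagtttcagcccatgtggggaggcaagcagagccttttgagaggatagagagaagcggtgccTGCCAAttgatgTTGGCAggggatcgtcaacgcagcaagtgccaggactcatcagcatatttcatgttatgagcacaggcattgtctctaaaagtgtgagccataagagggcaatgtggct
Tenm4: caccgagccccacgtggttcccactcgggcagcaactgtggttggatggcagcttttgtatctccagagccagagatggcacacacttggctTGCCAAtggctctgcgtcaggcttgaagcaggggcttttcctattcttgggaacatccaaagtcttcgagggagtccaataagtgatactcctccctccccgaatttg
Etv5: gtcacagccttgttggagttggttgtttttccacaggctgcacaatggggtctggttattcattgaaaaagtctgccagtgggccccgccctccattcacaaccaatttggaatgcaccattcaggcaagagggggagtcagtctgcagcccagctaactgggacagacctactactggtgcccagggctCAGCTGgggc
Epha6: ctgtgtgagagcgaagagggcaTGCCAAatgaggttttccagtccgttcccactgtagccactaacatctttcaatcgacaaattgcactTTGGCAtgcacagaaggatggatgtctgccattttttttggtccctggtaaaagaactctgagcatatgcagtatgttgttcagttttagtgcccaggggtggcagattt
Cntnap2: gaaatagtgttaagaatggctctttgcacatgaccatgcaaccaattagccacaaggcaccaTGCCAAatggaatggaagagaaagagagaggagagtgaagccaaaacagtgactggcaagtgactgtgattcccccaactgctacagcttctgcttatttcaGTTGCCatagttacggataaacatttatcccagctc
Zbtb20: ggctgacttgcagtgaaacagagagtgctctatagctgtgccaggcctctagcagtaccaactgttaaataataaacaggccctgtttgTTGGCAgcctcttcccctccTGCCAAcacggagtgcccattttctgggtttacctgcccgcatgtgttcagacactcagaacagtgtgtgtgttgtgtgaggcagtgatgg
Drd3: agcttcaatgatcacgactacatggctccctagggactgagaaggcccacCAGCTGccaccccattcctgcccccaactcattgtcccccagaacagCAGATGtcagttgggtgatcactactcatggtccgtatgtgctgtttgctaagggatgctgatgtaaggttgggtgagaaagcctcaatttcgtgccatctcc

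The second set shows repeated or copied members, 2 from the strongest held by all 4 lists and 1 held by both Ctrl lists alone. They do not stand for all such regions, since 108 of the 191 held by all 4 lists were not tandem. The window chr2:52697689-52697888 in intron 13 of 13 of Stam2 matches itself best at a shift of 54 bases, and chr9:4445665-4445864 in intron 14 of 16 of Gria4 matches itself best at a shift of 130 bases. Capitals mark a stretch as long as that shift, which may hold several copies of a shorter unit. The window chr12:78350888-78351087 in intron 2 of 22 of Gphn is not repeated in itself but aligned to 2 other places in the genome over at least 150 bp at an identity of at least 90%, and it is printed without capitals.
Stam2: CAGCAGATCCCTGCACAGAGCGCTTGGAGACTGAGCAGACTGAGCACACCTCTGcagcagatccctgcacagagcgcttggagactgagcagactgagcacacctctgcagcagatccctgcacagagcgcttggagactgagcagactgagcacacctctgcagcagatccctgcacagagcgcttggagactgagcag
Gria4: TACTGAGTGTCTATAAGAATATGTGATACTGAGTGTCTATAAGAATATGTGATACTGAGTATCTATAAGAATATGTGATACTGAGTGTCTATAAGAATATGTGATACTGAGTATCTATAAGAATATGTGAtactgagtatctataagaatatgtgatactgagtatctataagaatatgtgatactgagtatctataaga
Gphn: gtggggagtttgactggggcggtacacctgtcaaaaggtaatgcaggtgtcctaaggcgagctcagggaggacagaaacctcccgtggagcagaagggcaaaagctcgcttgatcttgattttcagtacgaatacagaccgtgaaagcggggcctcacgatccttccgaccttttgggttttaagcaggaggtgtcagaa

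The 4 libraries gave very different numbers of members. Ctrl1 had 12482, Ctrl2 had 584, cKO1 had 3842 and cKO2 had 11540. Members made up 26.9% of the list in Ctrl1 (95% Wilson interval 26.5 to 27.3%), 8.30% in Ctrl2 (7.68 to 8.97%), 17.9% in cKO1 (17.4 to 18.5%) and 25.9% in cKO2 (25.5 to 26.3%), and these intervals cover counting error only. Ctrl2 had the shortest list, 7037 peaks, from the most fragments, 29.6 M as recovered from the peak statistics, against 14.6 to 19.4 M in the other libraries. Of its autosomal intronic peaks outside promoters and exons, 60.1% were dropped as soft-masked, against 4.22 to 14.4% elsewhere. The median member rested on 15, 20, 17 and 18 fragments at its summit in Ctrl1, Ctrl2, cKO1 and cKO2.

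Members of Ctrl2 also differed in sequence. Tandem copies are adjacent near-identical repeats, and a member was counted as one when the 400 bases about its summit matched themselves at 70% or more of positions at some shift of 10 to 150 bases. This measure was added after the data were seen. In Ctrl2, 363 of 584 members (62.2%) lay on tandem copies. Other distal peaks of this library were often tandem too, at 42.5% of intergenic and 30.3% of exonic peaks, against 3.18% of promoter peaks. The share was 1.31% in Ctrl1, 4.71% in cKO1 and 1.93% in cKO2, and 0.194% of 62403 windows sampled from eligible intron. The median best shift, which can be a multiple of the repeated unit, was 52 to 56 bases in every library. Of the 202 regions held by Ctrl2 alone, 73.3% were tandem, as were 43.5% of the 191 regions held by all 4 lists, against 2.06 to 3.18% of regions held by 1, 2 or 3 lists. The soft-mask filter of the rule did not remove these peaks.

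Promoters of cell type markers were checked in each list against the labelled tissue. A marker was counted when a summit lay within 2 kb of any of its annotated TSSs. Over all protein-coding genes with eligible intron, 65.0, 9.59, 45.4 and 62.5% had a promoter peak in Ctrl1, Ctrl2, cKO1 and cKO2. Promoter peaks were listed for 4, 0, 2 and 5 of 5 hippocampal neuron markers in Ctrl1, Ctrl2, cKO1 and cKO2. Of 4 progenitor markers, 4, 0, 2 and 4 had a promoter peak, among them Pax6 with 81, 0, 45 and 62 fragments in that order of libraries, where 0 stands for no listed peak. Of 5 interneuron markers 3, 0, 1 and 2 had one, of 4 oligodendrocyte markers 2, 0, 0 and 1, and of 4 endothelial markers 1, 0, 1 and 0. No promoter peak was listed for the 4 microglial markers or the 4 markers of other tissues. At the targeted gene itself, Kdm2b, members lay in introns 11, 9 and 6 of 22. The intron 6 region (chr5:122950564-122951267) had 17 fragments in Ctrl1 and 26 in cKO2, the intron 11 region (chr5:122925628-122925889) had 15 and 10, and the intron 9 region (chr5:122938206-122938438) was listed in cKO2 alone with 19. Peak lists do not show the deleted exon, so these values check nothing about the genotype.

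Members did not separate cKO from Ctrl by number or share. cKO libraries had 7691 ± 5443 member peaks and Ctrl libraries 6533 ± 8413 (mean ± SD, n = 2 each), which differ by 1158 (exact two-sided permutation test, p = 1). As a share of the list, members were 21.9 ± 5.63% of peaks for cKO, against 17.6 ± 13.2% for Ctrl (n = 2 each, exact permutation p = 1). Both groups spanned a wide range, and each Ctrl value lay outside the range of the cKO values, 1 above and 1 below. Without Ctrl2 the difference in number turned to -4791 and that in share to -4.98 percentage points, and without cKO2 the difference in number was -2691. In bulk tissue, fewer open cells and less opening per cell cannot be told apart.

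**Figure D1:**
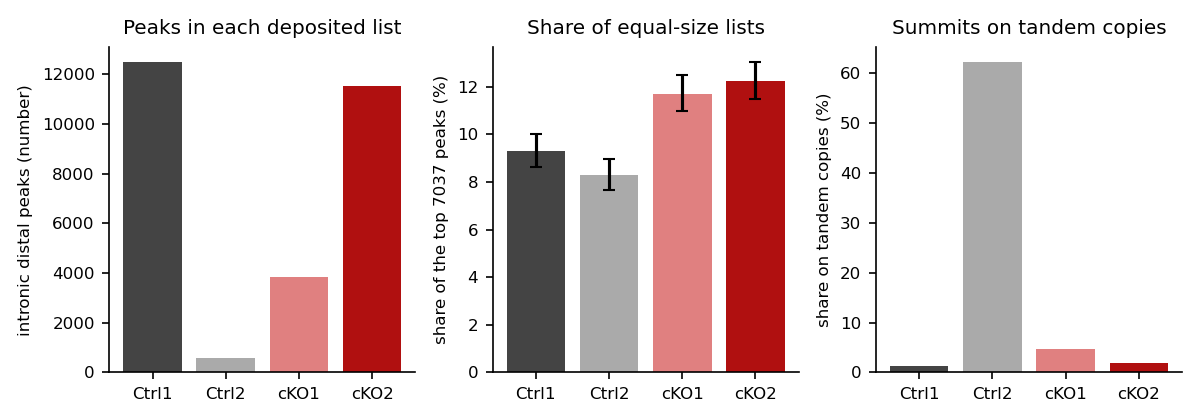
Bars give, for each library, the number of members in the deposited list, their percent of the 7037 strongest peaks with 95% Wilson intervals, and the percent of members on tandem copies. Ctrl2 has 584 members, 8.30% of its list and 62.2% on tandem copies.

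Lists were then cut to the 7037 strongest peaks by −log10 p, the length of the shortest list. In these equal-size lists, members were 9.31% and 8.30% of peaks in the Ctrl libraries and 11.7% and 12.2% in the cKO libraries. Both cKO values lay above both Ctrl values. The means were 11.97 ± 0.372% and 8.80 ± 0.713% (n = 2 each), and the difference of 3.17 percentage points had an exact permutation p of 0.33, the smallest that 2 against 2 libraries allow, and 1 after Benjamini-Hochberg adjustment over 4 tests. The order did not hold once soft-masked and tandem-copy peaks were dropped before the lists were cut, to 2156 peaks each. Members were then 3.15% in Ctrl1, 10.3% in Ctrl2, 6.77% in cKO1 and 5.47% in cKO2, a difference of -0.58 percentage points (exact permutation p = 1). In these shorter lists promoters took up 71.3 to 87.6% of peaks.

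Scaled depth, the fragments at the summit relative to the library's mean genome depth, compares how open members were. Its median over members was 9.25 in Ctrl1, 5.77 in Ctrl2, 8.20 in cKO1 and 9.96 in cKO2. The cKO libraries lay on either side of Ctrl1. The mean was 9.08 ± 1.25 for cKO, against 7.51 ± 2.46 for Ctrl (n = 2 each), with a difference of 1.57 with an exact permutation p of 0.667. It was -0.168 without Ctrl2.

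Most members of cKO1 recurred in the long lists. In cKO1, 91.3% of members had a peak in Ctrl1 and 93.4% in cKO2. Of members in Ctrl1, 67.5% had a peak in cKO2, and 72.9% the other way round. Ctrl2 stood apart, with 40.9% of members shared with Ctrl1, 47.9% with cKO1 and 50.3% with cKO2, and its intergenic peaks were close to that, at 47.3, 53.4 and 53.9%, whereas 88.4 to 90.2% of its promoter peaks were shared with each of these lists. Over the regions, 7159 (44.6%) were held by 1 list, 5363 (33.4%) by 2, 3348 (20.8%) by 3 and 191 (1.19%) by all 4. Over all autosomal regions these shares were 36.8, 30.3, 27.5 and 5.39%. The most frequent pattern was Ctrl1 with cKO2, the 2 longest lists and 1 of each group, with 5030 regions (31.3%, against 27.3% of all regions). It was followed by Ctrl1 alone with 3934 (24.5 against 18.9%). Ctrl1 and cKO2 with cKO1 held 3275 (20.4 against 26.2%), and cKO2 alone held 2910 (18.1 against 14.1%).

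Few regions were listed by genotype. Both cKO lists but no Ctrl list held 120 of 16061 regions (0.747%), against 0.693% of all regions, and both Ctrl lists but no cKO list held 31 (0.193%), against 0.287% of all regions. Both counts were near the background. Without tandem copies the counts were 115 (0.739%) and 10 (0.0642%) of 15567 regions, against 0.687 and 0.208% of all regions. Those ranked best by the weaker of their ranks lay in Ppp1r14c with 20 and 40 fragments in cKO1 and cKO2, Prkca, a protein kinase C gene, with 15 and 31, E130114P18Rik with 17 and 39, Amer3 with 18 and 42, and Tenm2, a teneurin adhesion gene, with 20 and 23. None of these 5 was on tandem copies. The 5 best ranked regions of both Ctrl lists were all on tandem copies. They lay in Sec22c with 32 and 16 fragments in Ctrl1 and Ctrl2, Gria4, which encodes an AMPA receptor subunit, with 13 and 29, Nmt1 with 13 and 23, and Ube2w and Hs2st1 with 12 and 14 each.

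In equal-size lists, both cKO lists but no Ctrl list held 148 of 1661 regions (8.91%), against 3.4% of all 13403 regions so cut. The reverse pattern had 1 region, against 0.134% of all regions. Each of the 148 was also called in Ctrl1 before the cut, at ranks 7052 to 20905 of that list. For Ctrl1 the pattern so marks rank and not absence. None of the 148 had a peak in Ctrl2, whose list was the shortest and was not cut. Their median scaled depth was 21.6 in Ctrl1, 12.5 in cKO1 and 27.4 in cKO2, with Ctrl1 between the cKO libraries. Pairs with 1 library of each group held 80 regions for Ctrl1 with cKO2 (4.82%, against 6.66% of all regions) and 57 for Ctrl1 with cKO1 (3.43 against 2.57%). Ctrl2 with cKO1 held 20 (1.20 against 3.85%), and Ctrl2 with cKO2 held 1 (0.0602 against 0.0671%). The best ranked of the 148 lay in Drd3, a dopamine receptor gene, with 36, 34 and 74 fragments in Ctrl1, cKO1 and cKO2. Ttc37 had 36, 32 and 88, and Zbtb20 had 40, 32 and 87. Chrna7, a nicotinic acetylcholine receptor subunit gene, had 35, 31 and 65, and Dlg2, a postsynaptic scaffold gene, had 29, 31 and 51. In all 5 the highest count was in cKO2. The region of the reverse pattern was in Dlgap2 and had 57, 15, 29 and 57 fragments in Ctrl1, Ctrl2, cKO1 and cKO2. When soft-masked and tandem-copy peaks were dropped first, lists were also cut to 2156 peaks each instead of 7037. They then held 68 to 221 members each, against 584 to 861. The excess of the cKO pattern over the reverse was 28 regions there instead of 147. How much of this fall came from the dropped peaks and how much from the shorter lists was not tested.

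Counts of shared regions by depth depended on the scaling. Over the 191 regions held by all 4 lists, scaled depth was above both Ctrl libraries in both cKO libraries in 5 (2.62%), against 8.37% of all 3058 such regions, and below in 19 (9.95%), against 3.43% of all regions. When depth was centred on the median of each library over all such regions, the counts turned to 23 above (12.04%) and 5 below (2.62%), against 4.38 and 1.24% of all regions. Among the 108 regions that were not tandem the uncentred counts were 3 above and 3 below (2.78% each), against 8.77 and 2.15% of 2749 such regions in all. Median scaled depth over the 191 regions was 23.4, 6.64, 12.5 and 22.7 in Ctrl1, Ctrl2, cKO1 and cKO2, so the libraries differed more within a group than between groups. Without Ctrl2, 3466 regions were held by the other 3 lists. Both cKO depths were above Ctrl1 in 90 (2.60%), against 5.35% of all regions, and below in 1669 (48.2%), against 61.3% of all regions. After centring they were above in 1599 (46.1%) and below in 755 (21.8%), against 32.1 and 39.2% of all regions. Centring moves every region of a library by the same factor, so these counts follow the scaling and give no direction of their own.

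The 10 strongest regions held by all 4 lists were those of Sfi1, Cntnap5b, Gphn, Camk1d, D5Ertd579e, Stam2, Fgfr2, Vps45, Sos2 and Cldn14. Stam2, D5Ertd579e and Vps45 were on tandem copies, with self-matches of 100, 84.7 and 98.8%. Cldn14, Sfi1 and Sos2 lay under the limit of 70% but also matched themselves in part, at 66.8, 65.5 and 57.0%, against 30.1 to 34.0% in Cntnap5b, Gphn, Camk1d and Fgfr2. Windows of Cntnap5b, Gphn, Camk1d, Fgfr2 and D5Ertd579e aligned to 1, 2, 16, 2 and 27 other places in the genome. The Stam2 region printed above had 59, 207, 70 and 103 fragments in Ctrl1, Ctrl2, cKO1 and cKO2. In Gphn, the gene of the inhibitory postsynaptic scaffold gephyrin, the counts were 243, 261, 242 and 241. Ctrl2 was the highest of the 4 in both by fragments, whereas relative to genome depth it was the lowest in Gphn, at 75.3 against 117 to 150. None of the 10 windows held TTGGCA. Reads of copied sequence can be placed in any of its copies, and how far this adds to the depth of the named introns was not tested.

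The 10 strongest regions held by the 3 other lists were of another kind. They lay in Slc7a11, Reln, Cttnbp2, Tenm4, Etv5, Adamtsl1, Mamstr, Epha6, Cngb1 and Cntnap2. None was on tandem copies or aligned elsewhere, 7 held TTGGCA and 9 held at least 1 of the 5 motifs marked above. In Slc7a11, which encodes the cystine transporter xCT, the summit had 135 fragments in Ctrl1, 78 in cKO1 and 131 in cKO2. Reln, the gene of reelin, which guides layering of hippocampal neurons, had 105, 63 and 112 in intron 10 of 64. Tenm4, a teneurin adhesion gene, had 99, 57 and 136. In each of these cKO1 was lowest and the other cKO library was near or above Ctrl1. Etv5, an ETS transcription factor gene, had 113, 68 and 93. Epha6, an ephrin receptor gene, had 75, 59 and 113. Cntnap2, a neurexin family adhesion gene, had 74, 56 and 93. By fragments, Ctrl1 lay between the cKO libraries in 6 of the 10 regions and above both in 4. By scaled depth Reln changed sides, with Ctrl1 above both, at 64.7, 30.4 and 62.0 in Ctrl1, cKO1 and cKO2.

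The NFI motif and 2 of the 3 E-boxes searched were found more often at members than in the introns around them. TTGGCA lay within 100 bases of the summit in 32.7% of the 8902 regions held by at least 2 lists, against 10.7% of windows 1 kb to either side and 10.7% of all 3119594 eligible intron windows of 200 bp. The full NFI site, TTGGC and GCCAA with 5 bases between them, was found in 0.0674% of regions. It was found in 0.00703% of flanks and 0.0138% of intron windows. The NEUROD and NEUROG E-box CAGATG was found in 29.5% of regions, 16.3% of flanks and 14.9% of intron windows. The other E-box, CAGCTG, was found in 21.2%, 9.62% and 8.54%. TAATTA was found in 13.3%, 6.42% and 7.56%. GTTGCC, whose RFX factors are known from genes of cilia, was found in 10.8%, 6.28% and 5.83%. All searches were on both strands.

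Other motifs went either way. CTTTGA, the core of TCF/LEF sites through which Wnt signals act, was found in 12.4% of regions, 14.6% of flanks and 15.4% of intron windows. The GATA motif, written AGATAA, was found in 8.56, 12.5 and 13.8%, and CACCTG, an E-box of ZEB and SNAI repressors, in 9.21, 13.6 and 12.1%. ACAAAG (SOX) was found in 19.0, 17.3 and 17.8%, and TGANTCA (AP-1) in 6.70, 6.38 and 6.59%. GGGCGG, the GC box of CGI promoters, was found in 4.09, 2.38 and 1.82%, against 51.0% of the Ctrl1 promoter peaks that another list also held. ACNAGGNGG, a core of CTCF sites, was found in 2.72, 1.65 and 1.57%, and the POU octamer ATGCAAAT in 1.83, 1.26 and 1.38%. Mean GC was 48.6% in region windows, 44.3% in flanks and 42.4% in intron windows. Base composition moves with these shares, and its part in them was not tested. These shares were not tested, and a match of letters is not a site bound by a factor.

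**Figure D2:**
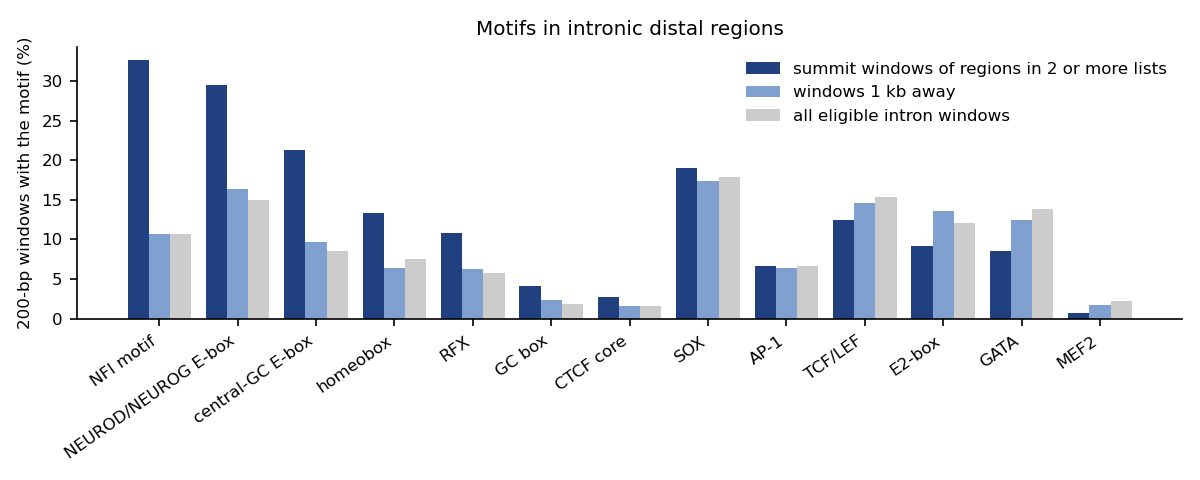
Percent of 200-bp windows with each motif, in regions held by at least 2 lists, in windows 1 kb away and in all eligible intron windows. TTGGCA was found in 32.7% of region windows, against 10.7% of each background.

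The 5 motifs marked in the sequences were more frequent at the summit than away from it. Over the 8636 regions without tandem copies, TTGGCA was found in 5.69% of 20-bp bins at the centre and 1.22% at the edges of the profile, a ratio of 4.66. For the E-boxes the ratio was 2.79 (CAGCTG) against 2.33 in the NEUROD and NEUROG form (CAGATG), and it was 2.46 for the homeobox motif and 2.09 for the RFX motif. The TCF/LEF and GATA motifs were lower at the centre, with ratios of 0.848 and 0.689. GC was 48.2% at the centre and 44.6% at the edges.

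**Figure D3:**
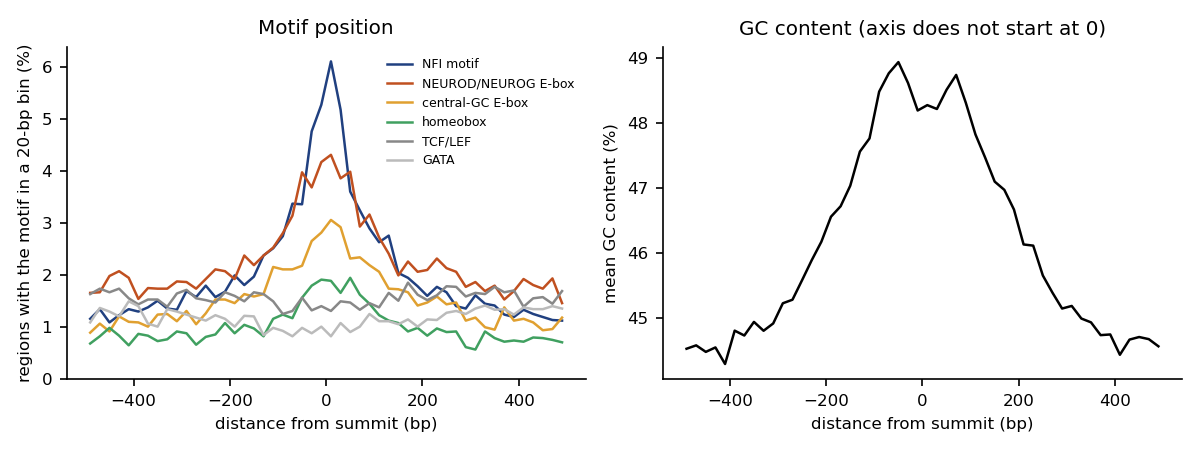
Percent of regions with each motif in 20-bp bins by distance from the summit in bp, over 8636 regions without tandem copies. The NFI motif is at 5.69% at the summit and 1.22% at the edges, the TCF/LEF motif is lower at the summit than at the edges, and the right panel gives mean GC.

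Stronger members carried the NFI motif more often in 3 of the 4 libraries. Members of each library were put into 5 depth classes of equal size. From the weakest to the strongest class, TTGGCA was found in 24.6, 27.4, 29.6, 33.1 and 37.9% of members in Ctrl1. In cKO1 the shares were 27.2, 28.3, 33.4, 36.7 and 36.8%, and in cKO2 they were 23.5, 29.2, 32.1, 34.5 and 37.3%. Ctrl2 went the other way, with 12.9, 10.3, 6.84, 3.42 and 0.855% over classes of 116 or 117 members. CAGATG went from 23.0 to 31.0% in Ctrl1, from 22.9 to 31.2% in cKO1 and from 22.8 to 35.9% in cKO2, between the weakest and the strongest class. In Ctrl2, 0.275% of the 363 tandem members and 17.6% of the 221 others held TTGGCA, against 30.9, 34.0 and 31.9% of members without tandem copies in Ctrl1, cKO1 and cKO2. Both cKO shares lay above both Ctrl shares, and the difference was not tested. In equal-size lists, tandem members included, that order did not hold. The shares there were 41.8% in Ctrl1, 6.85% in Ctrl2, 37.5% in cKO1 and 36.5% in cKO2.

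**Figure D4:**
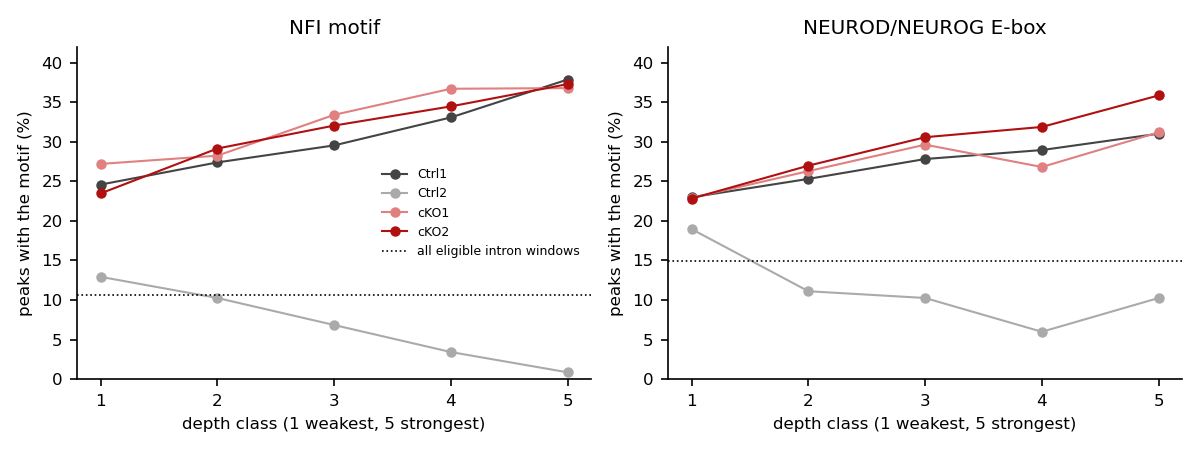
Percent of members with the NFI motif (TTGGCA) and the NEUROD and NEUROG E-box (CAGATG) in 5 depth classes of equal size, weakest to strongest, by library. In Ctrl1 and both cKO libraries TTGGCA goes from 23.5 to 27.2% in the weakest class to 36.8 to 37.9% in the strongest, and in Ctrl2 it goes from 12.9 to 0.855%, with dotted lines for all eligible intron windows.

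Of the regions that both cKO lists but no Ctrl list held, 115 were not tandem. TTGGCA was found in 31.3% of them, CAGATG in 33.9%, CAGCTG in 19.1%, TAATTA in 7.83% and CTTTGA in 12.2%. Over all 8636 regions held by at least 2 lists and without tandem copies, the shares were 33.6, 30.2, 21.8, 13.7 and 12.8%. With 115 regions, no difference between these shares was tested. By the number of lists that held a region, TTGGCA was found in 26.3, 31.4, 37.1 and 31.5% of regions without tandem copies held by 1, 2, 3 and 4 lists.

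Members were spread over many genes and were dense in a few. Of 16940 protein-coding genes with eligible intron, 3629 (21.4%) held at least 1 region found in at least 2 lists. The median length of these host genes was 96.5 kb, against 24.8 kb over all such genes, and the pooled density was 1.43 regions per 100 kb of eligible intron. The 115 genes with at least 10 regions held 18.2% of the regions. Hosts had a promoter peak more often than other genes in Ctrl1 (75.8 against 61.3%), cKO1 (52.1 against 44.5%) and cKO2 (72.4 against 59.3%), and in Ctrl2 the shares were 9.32 and 9.60%. Hosts were also the longer genes, and the part of gene length in these shares was not tested.

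By count, Gm20388 held the most regions, 55, and Fgfr2 held 29, in annotated models of 4435 and 2961 kb that span other genes. Auts2, whose protein joins a Polycomb complex and acts in neuronal development, held 33 regions over 1106 kb on chromosome 5, with 42, 3, 16 and 35 member peaks in Ctrl1, Ctrl2, cKO1 and cKO2. Tenm4 held 30, with 35, 2, 15 and 41 member peaks. The libraries kept the order of their totals over all members in Auts2, and in Tenm4 cKO2 had the most. The neurexin Nrxn3 held 25, the limbic adhesion gene Lsamp 24, Tenm2 and Macrod2 23 each, and Dlg2 21. Gse1, Msi2 (a Musashi RNA-binding protein of progenitors), Zbtb20, Ptprn2, Pcdh9 (a protocadherin) and Astn2 (an astrotactin of neuronal migration) held 20 each.

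Ranked by density among genes with at least 5 regions, Sfi1 came first with 40.2 regions per 100 kb in 22.4 kb of eligible intron. It was the sole gene of the 10 with more member peaks in Ctrl2 (6) than in Ctrl1 (5), and its strongest region matched itself at 65.5% of positions. Bahcc1 had 16.9 regions per 100 kb, B230118H07Rik 12.2, Nfix 11.4, Ift122 11.3, Sfxn5 10.2, Sybu 9.36, Nuak1 9.19, Ccdc33 9.06 and Stra6 8.99. Nfix encodes an NFI protein, and its 8 regions had 8, 1, 5 and 10 member peaks in Ctrl1, Ctrl2, cKO1 and cKO2. Ift122 is a gene of transport in cilia, Sybu encodes a carrier of axonal cargo and Stra6 a receptor for retinol transport. Ccdc33 and Stra6 overlap on chromosome 9 and can share regions.

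Gene lists chosen for this tissue, with earlier results of these data known, differed in density. Neuronal transcription factors had 2.81 regions per 100 kb, against 1.43 over all genes, with a region in 24 of 32 genes and a median of 2.53 per 100 kb per gene, where the median over all genes was 0. Auts2, Zbtb20 (20 regions) and Nfib (19), another NFI gene, led the list. Its density was 3.64, 0.107, 1.29 and 3.25 member peaks per 100 kb in Ctrl1, Ctrl2, cKO1 and cKO2, against 2.00, 0.094, 0.614 and 1.85 over all genes, so it lay above all genes in each library. Axon guidance genes had 1.88 regions per 100 kb (40 of 63 genes), led by the ligand Slit3 with 15 and the receptors Ephb1 and Robo1 with 12 each. Oligodendrocyte genes had 1.84 (9 of 16), led by the matrix gene Tnr with 10, but lay below all genes over regions of at least 3 lists (0.480 against 0.566) and in cKO1 (0.560 against 0.614 member peaks per 100 kb). Progenitor transcription factors had 1.83 (14 of 23), led by Sox5 with 13, Tead1 with 10 and Tcf4 with 9. Synaptic adhesion genes had 1.37 (53 of 65), led by Tenm4, Nrxn3 and Lsamp, and glutamate and GABA receptors had 1.32 (25 of 41), among them Grid1 with 14 and Gabbr2 with 13.

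Lists of endothelium, microglia, interneurons and other tissues had lower densities than all genes over regions of at least 2 lists. Endothelial genes had 1.15 regions per 100 kb (10 of 22 genes), led by Mecom with 4 and Ets1 with 3, though in cKO2 they had 1.91 member peaks per 100 kb, against 1.85 over all genes. Microglial genes had 1.0 (6 of 21), led by Dock2 with 4, and genes of other tissues had 0.968 (8 of 40), led by Pkhd1, a kidney gene, with 7. Interneuron genes had 0.655 (5 of 17), led by the neuregulin receptor Erbb4 with 5 and Nxph1 with 3. The median gene in each of these 4 lists held no region, as over all genes. None of these densities was tested.

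**Figure D5:**
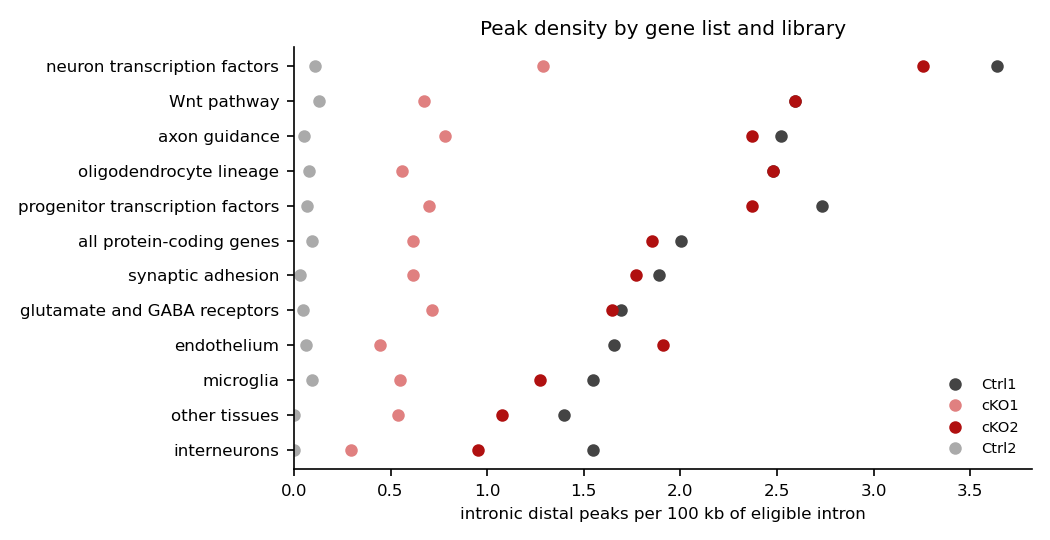
Member peaks per 100 kb of eligible intron for 11 gene lists and all protein-coding genes, by library, with points of Ctrl1 and cKO2 on top of each other for the Wnt and oligodendrocyte lists. Neuronal transcription factors are highest in Ctrl1 (3.64) and cKO2 (3.25), and Ctrl2 lies near 0 throughout.

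Wnt pathway genes, which the study followed, held 60 regions in 32 of 71 genes, or 1.92 per 100 kb, against 1.43 over all genes, though the median Wnt gene held none. Over regions of at least 3 lists the density was 0.577 per 100 kb, against 0.566 over all genes, so the ratio to all genes went from 1.34 to 1.02. Of the 60, 58 had a peak in Ctrl1, 1 in Ctrl2, 20 in cKO1 and 59 in cKO2. Among the 18 held by the lists other than Ctrl2, both cKO depths were above Ctrl1 in 0 and below it in 9, beside 5.35 and 61.3% of all regions so held. Wnt3a, a ligand of the cortical hem, had 16, 15 and 22 fragments in Ctrl1, cKO1 and cKO2 at chr11:59282942-59283444, and Wnt7a had 24, 19 and 39 at chr6:91384034-91384717. The co-receptor gene Ror1 held 5 regions, the strongest with 40, 22 and 45 fragments, and the R-spondin receptor Lgr4 had 34, 21 and 35. By fragments, cKO1 was lowest and cKO2 highest in each of these 4. By scaled depth cKO1 was lowest in each, whereas in Lgr4 Ctrl1 was highest, with 21.0, 10.1 and 19.4 in Ctrl1, cKO1 and cKO2.

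Effectors and feedback genes of the pathway followed. Tcf7l2, which encodes a nuclear effector, held 4 regions, and the strongest (chr19:55825882-55826548) had 33, 20 and 33 fragments in Ctrl1, cKO1 and cKO2. Axin2, a feedback inhibitor that Wnt signals induce, had 23, 15 and 20 at chr11:108935039-108935655. Nkd1, another inhibitor, and Tcf7l1, a repressor of Wnt targets, held 4 regions each. The pathway's region that both cKO lists but no Ctrl list held was in intron 19 of 25 of Daam1, which links Wnt signals to the cytoskeleton, at chr12:71975760-71976271, with 13 and 21 fragments in cKO1 and cKO2. The region with a peak in Ctrl2 was in intron 1 of 8 of Znrf3, which encodes an inhibitor of Wnt receptors. It lay on tandem copies and had 15 fragments in Ctrl2 and 13 in cKO1.

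Within genes, members were placed much as the introns themselves. In genes with more than 1 intron, 24.3% of regions lay in the first intron, where 23.4% of eligible intron lies. The 10% of the gene body nearest its start, which the distance from a TSS trims, held 6.66% of regions and 8.07% of eligible intron. The median distance to the nearest TSS was 24.4 kb for regions and 22.3 kb for eligible intron. By library it was 24.1 kb in Ctrl1, 17.3 kb in Ctrl2, 24.9 kb in cKO1 and 23.9 kb in cKO2.

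Members were compared with other classes of peaks within each library, over 15 tests. Against promoter peaks, their median GC differed by -13.9 ± 1.95 percentage points and their CpG observed over expected by -0.587 ± 0.0815 (SD over 4 libraries, 4 of 4 in that direction, exact sign-flip p = 0.13 each, the smallest that 4 libraries allow, and 0.268 after Benjamini-Hochberg adjustment), a difference that the removal of CGIs from members helps to set. Sharing with another list was lower than for promoter peaks in 4 of 4 libraries, with a difference of -16.2 ± 10.7 percentage points (exact sign-flip p = 0.13). Intergenic distal peaks under the same filters were the nearest class. Members had a median GC 1.23 ± 0.155 percentage points higher in 4 of 4 libraries (exact sign-flip p = 0.13), whereas width, scaled depth, CpG ratio and sharing differed from them with exact sign-flip p of 0.25 to 1. Among Ctrl1 peaks that another list also held, TTGGCA was found in 33.0% of intergenic windows and 33.0% of members. Against exonic distal peaks, members were wider by 12.4 ± 8.18 bp and differed in GC by -2.60 ± 0.255 percentage points, in 4 of 4 libraries each (exact sign-flip p = 0.13). Their CpG observed over expected differed from that of exonic peaks by -0.0728 ± 0.0304, in 4 of 4 libraries (exact sign-flip p = 0.13). The difference in width turned to -10.75 ± 33.1 bp without tandem-copy peaks (exact sign-flip p = 1). The other differences with a p of 0.13 kept their sign without Ctrl2, where 3 libraries allow no exact p below 0.25, and without tandem-copy peaks. Sharing with another list then differed from promoter peaks by -12.7 ± 8.54 and -14.0 ± 8.26 percentage points in that order.

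Peaks just past the limits of the rule resembled those just inside. In all lists together, 496 members lay 2.0 to 2.5 kb from a TSS, with a median scaled depth of 9.75 and GC of 49.2%, and 535 peaks left out at 1.5 to 2.0 kb had 9.86 and 50.0%. The 344 members with 40 to 50% of bases masked had a median scaled depth of 7.75 and GC of 45.6%, and the 207 peaks left out at 50 to 60% had 6.78 and 46.2%.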

How the data were processed

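ATAC-seq of P0 hippocampi gave 4 libraries, grouped by their titles. The authors used Cutadapt for trimming and Bowtie2 for alignment to mm10, discarded blacklisted, mitochondrial and duplicate reads, applied the Tn5 shift, and ran MACS2 2.2.7.1 on each library alone without a control. Each list so has its own threshold. The deposited score is a display value and was not used. The deposited fold is the ratio of fragment depth to local background at the summit, and the deposited −log10 p-value and −log10 q-value come from the authors' Poisson test. Fragments at each summit were recovered from fold and p; whole numbers fitted within 0.01 for 99.4% or more of peaks in every list, and the total of fragments rests on MACS2 defaults. Median summit depth was 18 to 20 fragments a peak.

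GENCODE M21 basic models and GRCm38 sequence defined members, and CGIs had at least 200 bp, GC 50% and an observed over expected ratio of 0.6. Members, lists and motifs were chosen with earlier results of these data known. Named genes were the 15 hosts with most regions, the 10 densest and the leading 3 of each list, of which 1 is not reported here. Named regions were the 10 strongest held by all 4 lists and the 5 best ranked of each pattern. The 10 strongest held by the lists other than Ctrl2 were added after values were seen. Regions of Kdm2b and of Wnt pathway genes were named as well. Lists were compared at deposited and equal length, by exact permutation over 6 assignments or exact sign flips over libraries. Alternatives were the TSS distance, repeat filter, q threshold, CGI filter, overlap, scaling, window, number of lists, replicate block and leaving out each library. The full annotation, the removal of tandem copies and the class comparisons without Ctrl2 were added after seeing the data. The recovery of depth and the search for tandem copies were tested on simulated data. Python 3.11.15, numpy 2.4.6, pandas 2.3.3, scipy 1.17.1, numba 0.67.0 and blastn 2.17.0 were used.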

Additional observations from a re-analysis of the deposited data

How the results depend on the processing

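The 4 differences between groups kept their sign with a TSS distance of 5 kb, a masked share under 20%, −log10 q of at least 5, no CGI filter and the full annotation, and no setting could bring p below 0.33. With soft-masked and tandem-copy peaks dropped first and lists cut to 2156 peaks, the difference in equal-size share turned to -0.58 percentage points. Leaving out each library gave differences of -4791 to 7107 members (-4791 without Ctrl replicate 2, -2691 without cKO replicate 2), -4.98 to 13.6 points of list share (-4.98 without Ctrl replicate 2), 2.66 to 3.67 points of equal-size share and -0.168 to 3.31 in scaled depth (-0.168 without Ctrl replicate 2). The excess of 147 regions held by both cKO lists alone over the reverse was 75 at −log10 q of at least 5 and 89 in deposited lists. It was 28 without masked and tandem-copy peaks, where lists were also cut to 2156 peaks instead of 7037. It was 30 to 336 when a library was left out (30 without Ctrl replicate 1, 73 without Ctrl replicate 2, 336 without cKO replicate 1, 307 without cKO replicate 2). The balance of -14 regions with both cKO depths above both Ctrl depths over the reverse was -5 at −log10 q of at least 5, -9 with summits within 200 bp, 0 without masked and tandem-copy peaks, 18 when centred, and -1579 to 39 when a library was left out (39 without Ctrl replicate 1, -1579 without Ctrl replicate 2, 28 without cKO replicate 1, -26 without cKO replicate 2). With 1 library left in a group, any region in that library's list counts for the group. Hosts were 29.5% of genes with regions of at least 1 list and 11.7% with at least 3, where fewer regions enter, and the share in the first intron was 23.1% with at least 3. The causes of the other changes were not tested. Among differences between members and other classes with an exact sign-flip p of 0.13, the width against exonic peaks turned to -10.75 bp without tandem-copy peaks. The rest kept their sign there and without Ctrl replicate 2. The ratio of TTGGCA in regions over intron windows was 3.92 in 100-bp and 2.28 in 400-bp windows.

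Replicate numbers appear in both groups, but no label says that they pair samples, and 2 pairs cannot show it. With a replicate block the differences stayed at 1158 members, 4.33 points of list share, 3.17 points of equal-size share and 1.57 in scaled depth, with exact sign-flip p of 1, 1, 0.5 and 1, where 0.5 is the smallest p that 2 pairs allow. Weak members rest on few fragments, so a region missing from a list may lie under its threshold.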
